A study of Mus musculus with 6 samples.

Results

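The transcripts of 29 glutamate receptor and glutamate transporter genes were examined in the mouse retina 2 days after optic nerve crush (ONC). The genes were taken by symbol from a list drawn up by gene family when earlier results of these data were known, and all 29 were found among the 35485 genes of the expression tables. They comprised 4 AMPA receptor subunits (Gria1 to Gria4), 5 kainate receptor subunits (Grik1 to Grik5), 7 NMDA receptor subunits (Grin1, Grin2a to Grin2d, Grin3a and Grin3b), the delta receptor Grid1, 7 metabotropic receptors (Grm2 to Grm8), 2 vesicular transporters (Slc17a7 and Slc17a8) and 3 plasma membrane transporters (Slc1a1, Slc1a2 and Slc1a7). All animals were wild type C57BL/6 mice aged 12 weeks. ONC animals (NC in some labels) received a forceps crush of 10 seconds, placed 2 mm from the eye. Sham animals had the same surgery without the crush. Whole retinas were taken after surgery, and RNA of 6 retinas from 6 mice was pooled into each sequenced sample, giving 3 samples and 18 retinas per group. Differences between replicates were therefore differences between pools, which average over the mice. The comparison addressed which retinal transcripts change early after injury to the axons of retinal ganglion cells (RGCs), the neurons whose axons form the optic nerve.

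Glutamate is the transmitter of photoreceptors, bipolar cells and RGCs. It is loaded into synaptic vesicles by the vesicular transporters, opens the AMPA, kainate and NMDA channels of the receiving cells, acts more slowly through the G protein-coupled metabotropic receptors, and is cleared by the plasma membrane transporters. AMPA, kainate and NMDA receptors are tetramers, so that the subunits made by a cell set the properties of its channels. RGCs and amacrine cells carry AMPA and NMDA receptors, OFF bipolar cells carry AMPA or kainate receptors, and ON bipolar cells sense glutamate through mGluR6, the product of Grm6.

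The sham samples held 17343945 to 18349331 exon reads each and the ONC samples 20019818 to 20358008. The share of the reads on genes that fell on exons was 70.9% to 76.6% in sham samples and 78.5% to 80.4% in ONC samples. ONC replicate 1 stood apart from the other ONC samples, with a chi-square per degree of freedom of 13.7 and 10.8 against them, compared with 4.54 between ONC replicates 2 and 3. The sham samples differed as well, with 5.54 between replicates 1 and 2, 7.57 between 1 and 3, and 9 between 2 and 3. Of fixed marker lists, 8 of 10 RGC genes were lower and 5 of 9 microglia and macrophage genes were higher after ONC at an adjusted p under 0.1. Over all 13670 tested genes, 6.09% passed this threshold. The summed TMM-scaled RPKM of the RGC list was 597 to 666 in sham and 417 to 450 in ONC samples, and that of the microglia list was 25.5 to 30.6 in sham and 43.9 to 48.2 in ONC samples. The horizontal cell list had 1 of 4 genes lower, with sums of 36.1 to 38.4 in sham and 29.6 to 33.3 in ONC samples, and the rod and cone list had 2 of 8 genes higher. Rod and cone markers, which define the retina, summed to 25690 to 27290 in sham samples. None of the 8 bipolar, 8 amacrine or 7 Müller cell markers tested passed the threshold by edgeR, with 1, 0 and 2 of them at an unadjusted p under 0.05 and 0, 0 and 1 called by DESeq2. In a whole retina, fewer cells of a type and less RNA per cell cannot be told apart, and the part of the RGC, horizontal cell and microglia marker shifts in the results below was not tested.

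Levels are given as TMM-scaled RPKM, the exon reads per kilobase of exon, scaled to the exon reads of the library after TMM normalization, which can be compared between genes and samples. Changes are log2 fold changes of ONC against sham from the edgeR quasi-likelihood test on total exon reads of 13670 genes, with Benjamini-Hochberg adjusted p over all of them. A gene was called at an adjusted p under 0.1 and counted as a differentially expressed gene (DEG) if the fold change was also above 1.5 in either direction. All 29 genes passed the filter on low values, for which either group had to average more than 0.3 RPKM.

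Expression of the 29 genes in sham retinas spanned more than 3 orders of magnitude. Slc17a7, which encodes the vesicular transporter VGLUT1 of photoreceptors and bipolar cells, stood far above the rest at 691 ± 20.7 TMM-scaled RPKM (SD, n = 3). The transporters Slc1a7 at 46.2 ± 2.59 and Slc1a2 at 34.9 ± 1.40 came next. A group of receptors followed with neighbours that were within their spread of each other, namely Grm6 at 24.5 ± 1.60, Grik1 at 23.5 ± 2.59, Gria2 at 23.3 ± 0.468 and Grin1 at 21.8 ± 2.13. Grik5 at 19.6 ± 0.303 and Gria4 at 19.4 ± 0.546 did not differ beyond their spread either. The lowest were Grik4 at 0.865 ± 0.204, Grm3 at 0.825 ± 0.137, Grin2c at 0.593 ± 0.0417 and Grin3b at 0.570 ± 0.118, for which single samples held between 20 and 111 exon reads.

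**Figure D1:**
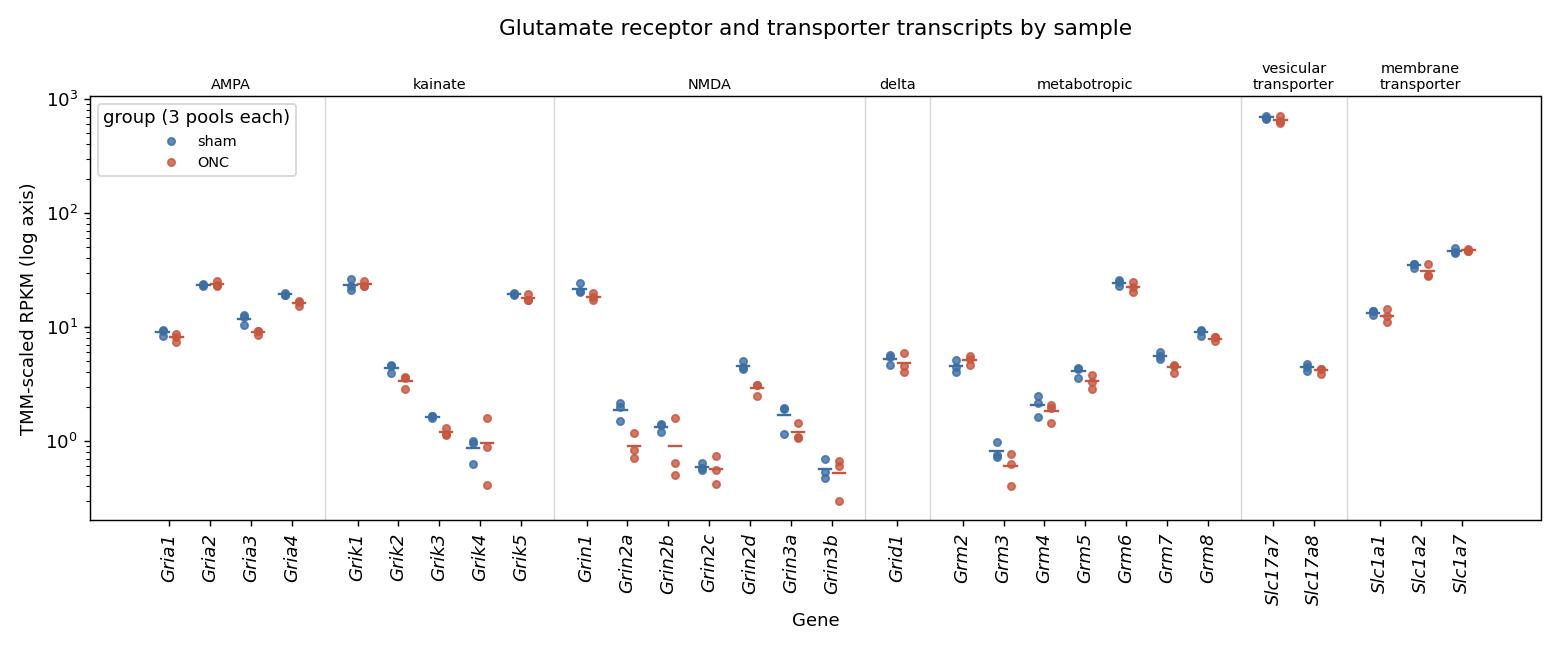
Level of each of the 29 genes in every sample, as TMM-scaled RPKM on a log axis, grouped by class. Blue points are the 3 sham pools, red points the 3 ONC pools, and short lines the group means. Slc17a7 lies near 691 in sham retinas and the lowest genes lie under 1, and the largest gaps between the groups are at Grin2a and Grin2d.

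Of the 29 genes, 5 were lower after ONC at the threshold and none was higher. The called genes, 5 of 29, were the NMDA subunits Grin2a and Grin2d, the AMPA subunits Gria3 and Gria4 and the kainate subunit Grik3. No metabotropic receptor or transporter of the 29 was among them. Over all tested genes, 6.09% were called and 3.72% were called lower. Of these, Grin2a and Grin2d, were DEGs, against 1.66% of all tested genes. Of the 29 log2 fold changes, 24 were below 0 with a median of -0.174, whereas 47.7% of all tested genes were below 0 with a median of 0.01. All 3 ONC samples were lower than all 3 sham samples for 9 of the genes and higher for 0, against 10.8% and 11.0% of all tested genes. On the deposited RPKM, whose scaling is described below, 5 were lower in all ONC samples and 3 were higher (Gria2, Grm2 and Slc1a7), beside 471 and 3468 of all 13670 tested genes. Without ONC replicate 1, 12 of the 29 were called, all lower, when 14.9% of all tested genes were called, 1262 of 13670 lower. Without sham replicate 2 the count was 2 (2.71% of all tested genes called, 219 genes lower), and without ONC replicate 3 it was 3 (3.31%, 273 genes lower).

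**Figure D2:**
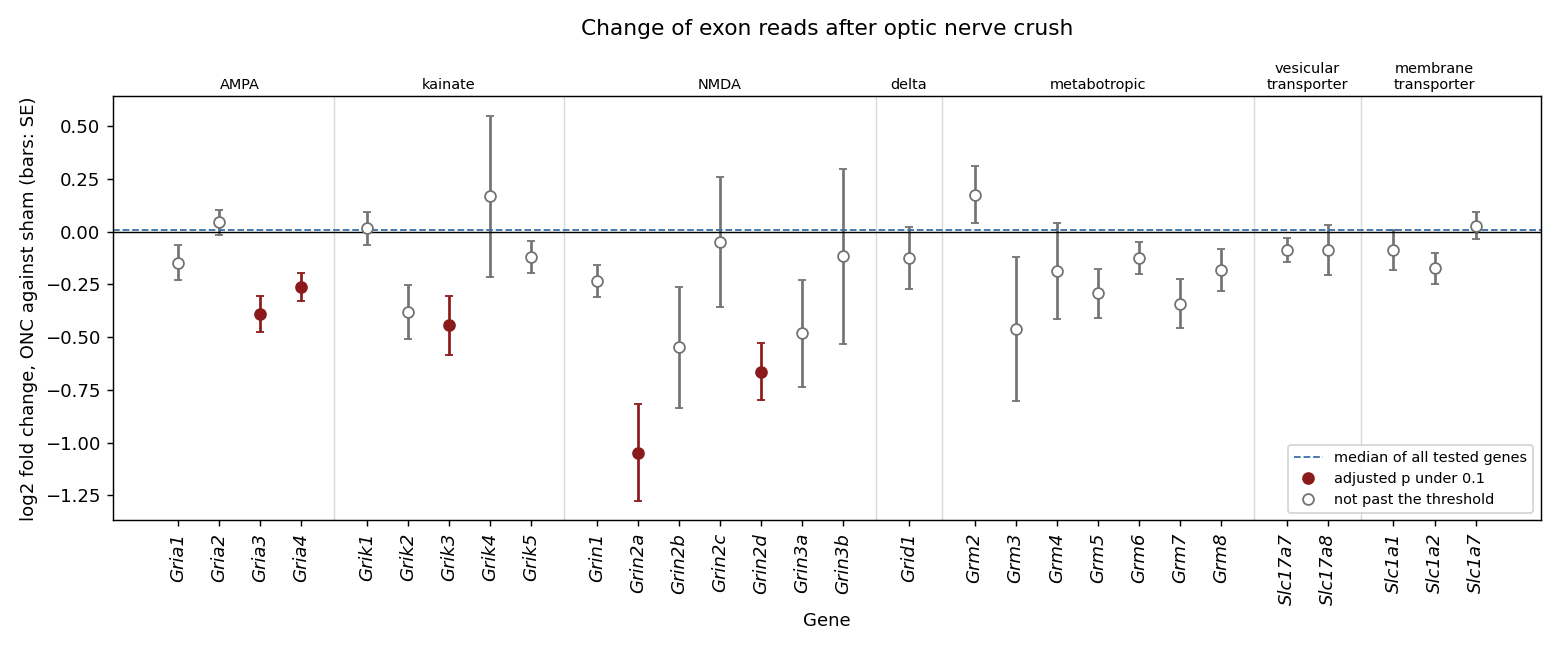
Log2 fold change of exon reads, ONC against sham, for each gene by class, with bars of 1 SE from the edgeR quasi-likelihood fit. Filled points passed an adjusted p under 0.1, and the dashed line is the median of all 13670 tested genes at 0.01. The 5 filled points are Gria3, Gria4, Grik3, Grin2a and Grin2d, all below 0.

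The direction of small changes depended on the scaling between samples. In the deposited RPKM the library size counts intron as well as exon reads. As the ONC samples had a higher exon share, this scaling moved the median log2 fold change of all genes to 0.131. On that scale 18 of the 29 genes were below 0, compared with 23.3% of all tested genes, and the median of the 29 was -0.054. Gria3, Grin2a and Grin2d were still called lower, while Gria4 had an adjusted p of 0.279 and Grik3 of 0.197 by edgeR. Of all 13670 tested genes, 223 were called lower and 1507 higher on that scale.

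NMDA receptors combine the obligatory subunit GluN1, encoded by Grin1, with GluN2 or GluN3 subunits that set their kinetics and calcium entry. All 7 NMDA subunit genes had log2 fold changes below 0, with a median of -0.482, and 2 passed the test. Under the scaling of deposited RPKM, Grin2c at 0.07 and Grin3b at 0.01 were above 0.

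Grin2d encodes GluN2D, a subunit that gives slowly decaying currents. It measured 4.48, 4.28 and 5.03 TMM-scaled RPKM in the sham samples and 3.12, 2.47 and 3.10 in the ONC samples, from 222 to 374 exon reads per sample. Every ONC sample was lower than every sham sample. The fold change was 1.59 downward, a log2 fold change of -0.67 (SE 0.13, edgeR adjusted p = 0.00567). Grin2d fell under each of the 17 alternative settings tried, with adjusted p up to 0.0641.

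Grin2a encodes GluN2A, the subunit typical of mature synapses. It measured 1.498, 1.97 and 2.18 TMM-scaled RPKM in the sham samples and 1.18, 0.844 and 0.714 in the ONC samples. The groups did not overlap, and the log2 fold change of -1.05 (SE 0.23, edgeR adjusted p = 0.0102) was the largest of the 29 in size. However, on average 60.4% of its exon reads were unique, that is, mapped to a single place in the genome. Its unique exon reads were 49, 101 and 90 in sham and 79, 64 and 38 in ONC samples, so that the groups overlapped. Its other reads, which also matched elsewhere, were 69, 61 and 77 in sham and 26, 14 and 29 in ONC samples, and these did not overlap. With unique reads the log2 fold change was -0.62 and the adjusted p by edgeR was 0.343. The call of Grin2a was thus lost without the reads that also match elsewhere, and its change is uncertain.

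Grin1 had 76.2% unique exon reads, and was the gene nearest to the threshold among those that missed it. It measured 20.4, 24.2 and 20.7 TMM-scaled RPKM in sham and 19.8, 18.4 and 17.4 in ONC samples, with a log2 fold change of -0.23 (SE 0.08, edgeR adjusted p = 0.111). The ONC samples were all lower than the sham samples. On the deposited RPKM the groups overlapped. With unique reads alone the log2 fold change was -0.26 (adjusted p = 0.0714, edgeR), with the scaling of deposited RPKM -0.11 (0.437), and without sham replicate 2 -0.15 (0.452). Grin1 was called lower in 5 of the 17 alternatives. Besides unique reads, edgeR called it with no filter (adjusted p = 0.0421), without sham replicate 1 (0.0981) and without ONC replicate 1 (0.01495). The DESeq2 Wald test called it as well (adjusted p = 0.0963).

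Grin2b, which encodes GluN2B, measured 1.40, 1.38 and 1.19 TMM-scaled RPKM in sham samples and 1.58, 0.5002 and 0.640 in ONC samples. ONC replicate 1 was above all sham samples and the other ONC samples were below them. Its log2 fold change was -0.55 (SE 0.29, edgeR adjusted p = 0.349), and without ONC replicate 1 it was -1.21 with an adjusted p of 0.000277. Grin3a, which encodes the glycine-binding GluN3A, was at -0.48 (adjusted p = 0.356, edgeR). Grin2c at -0.05 and Grin3b at -0.12 were each within 1 SE of 0.

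The AMPA receptors carry fast transmission, and receptors that contain GluA2, the product of Gria2, hardly let calcium through. Gria3 and Gria4 were lower after ONC, whereas Gria1 and Gria2 did not pass the test. Gria3 measured 10.4, 12.8 and 12.2 TMM-scaled RPKM in sham and 9.28, 9.22 and 8.57 in ONC samples. Its groups did not overlap, with a log2 fold change of -0.39 (SE 0.09, edgeR adjusted p = 0.0113), and without sham replicate 2 the adjusted p was 0.112.

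Gria4 measured 19.3, 20.1 and 19.02 TMM-scaled RPKM in sham and 16.9, 16.5 and 15.3 in ONC samples. These groups did not overlap either, but on the deposited RPKM they did. The log2 fold change was -0.26 (SE 0.06, edgeR adjusted p = 0.0244), with an adjusted p of 0.143 without sham replicate 2 and 0.151 without ONC replicate 3. Gria2 measured 22.9, 23.2 and 23.8 in sham and 23.5, 23.1 and 25.5 in ONC samples, groups that overlapped, with a log2 fold change of 0.04 (SE 0.06, edgeR adjusted p = 0.770). Gria1 was at -0.15 (SE 0.08, adjusted p = 0.401, edgeR).

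The make-up of the AMPA transcripts can be read within a sample, where the scaling between samples has no part. The share of Gria2 in the summed RPKM of the 4 AMPA subunits was 36.9%, 35.6% and 37.5% in the sham samples and 40.6%, 40.2% and 44.9% in the ONC samples. Each ONC share was above each sham share, with a difference of 5.20 percentage points (36.7% ± 0.986 against 41.9% ± 2.61, SD, n = 3, two-sided exact permutation p = 0.1). With 3 samples against 3, 0.1 is the smallest p this test can give, and over the 9 summed and within-sample measures tested the adjusted value was 0.225. The share of Gria1 was 14.1% in both groups, and its difference was -0.002 percentage points (exact permutation p = 0.9). As part of the same sum, the share of Gria3 was 18.6% ± 1.503 in sham and 15.7% ± 0.562 in ONC samples, and that of Gria4 was 30.6% ± 0.568 and 28.3% ± 1.18 (SD, n = 3). Neither overlapped between groups.

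**Figure D3:**
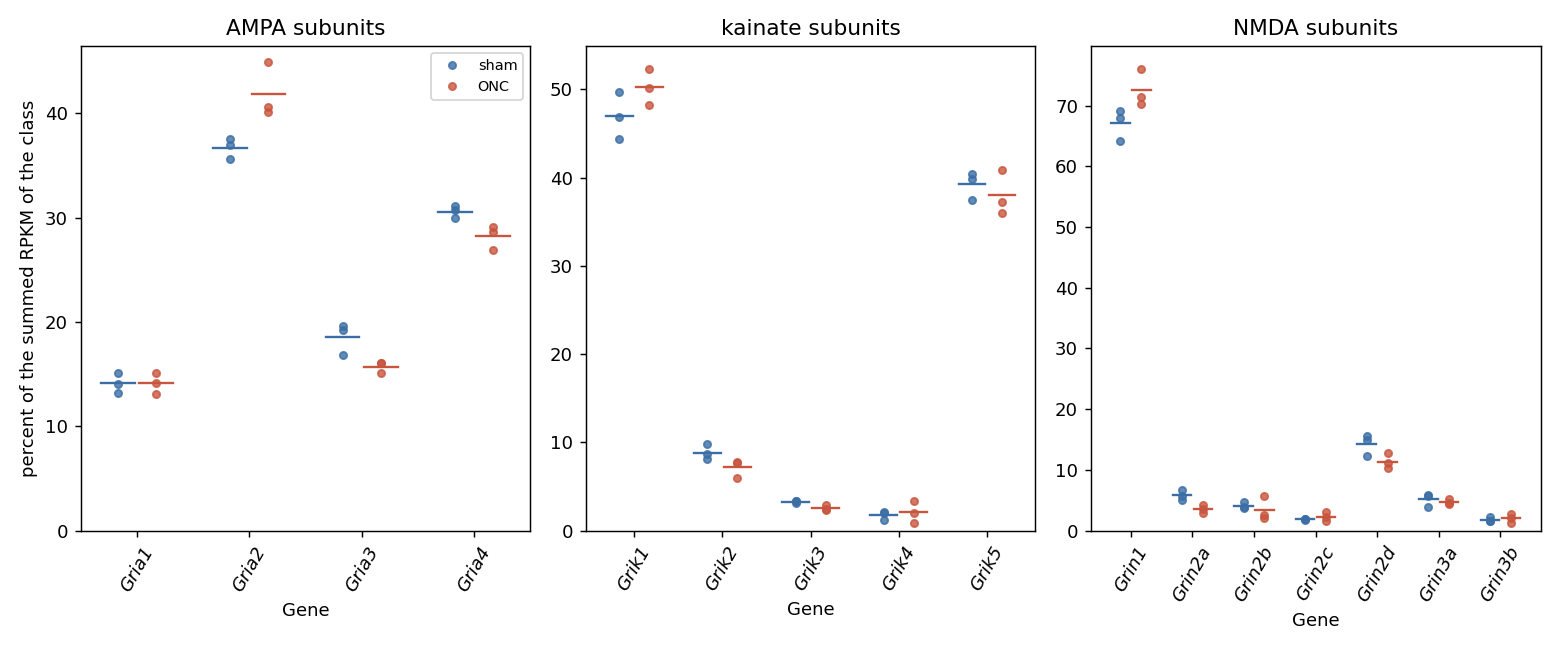
Percent of the summed RPKM of its class taken by each AMPA, kainate and NMDA subunit, for the 3 sham pools (blue) and the 3 ONC pools (red), with lines at the means. Gria2 takes 35.6% to 37.5% of the AMPA sum in sham and 40.2% to 44.9% in ONC samples, and Grin1 takes most of the NMDA sum in every sample.

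Summed over the 4 subunits, AMPA transcripts measured 61.9, 65.3 and 63.5 TMM-scaled RPKM in sham and 57.8, 57.5 and 56.9 in ONC samples, a log2 ratio of means of -0.148. The 7 NMDA subunits summed to 30.0, 35.0 and 32.3 in sham and 28.1, 24.1 and 24.3 in ONC samples, a log2 ratio of -0.344. Both sums were lower in every ONC sample, and both had an exact permutation p of 0.1 and an adjusted value of 0.225. Grin1 took 67.1% ± 2.65 of the NMDA sum in sham and 72.6% ± 3.06 in ONC samples (SD, n = 3), without overlap, and Grin2a took 5.80% ± 0.888 and 3.54% ± 0.620. The log2 ratio of Grin2b to Grin2a, the main GluN2 subunits of forebrain and many other neurons, was -0.496 ± 0.389 in sham and -0.162 ± 0.591 in ONC samples, and the difference of 0.334 did not exceed the spread (exact permutation p = 0.5). With unique exon reads this difference was -0.109, and with a sample left out it was 0.040 to 0.630.

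Kainate receptors are built from GluK1 to GluK3, which can form channels alone, and the high-affinity GluK4 and GluK5. Grik3 measured 1.60, 1.65 and 1.65 TMM-scaled RPKM in sham and 1.16, 1.31 and 1.13 in ONC samples, from 203 to 265 exon reads. The ONC samples were all lower, with a log2 fold change of -0.44 (SE 0.14, edgeR adjusted p = 0.0837). This call was close to the threshold and held in 6 of the 17 alternatives. It was lost without any 1 of sham replicates 1, 2 and 3 (adjusted p = 0.143, 0.221 and 0.227) and without ONC replicate 2 or 3 (0.129 and 0.270).

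Grik2, which encodes GluK2, had a change of similar size that missed the threshold. It measured 4.66, 4.56 and 3.98 TMM-scaled RPKM in sham and 2.87, 3.58 and 3.68 in ONC samples, without overlap (log2 fold change -0.38, SE 0.13, edgeR adjusted p = 0.120). Its groups overlapped on the deposited RPKM. Grik1, the subunit known from OFF cone bipolar cells, measured 21.1 to 26.3 in sham and 23.0 to 25.2 in ONC samples, with a log2 fold change of 0.02 (SE 0.08). Grik5 was at -0.12 (SE 0.07) and 0.0014 under the scaling of deposited RPKM. Grik4 was at 0.17 (SE 0.38), and without ONC replicate 1 at -0.40. The summed kainate transcripts were 49.9 ± 2.71 in sham and 47.3 ± 1.19 TMM-scaled RPKM in ONC samples (SD, n = 3, exact permutation p = 0.3). Grid1, the delta receptor GluD1, which organizes synapses, was at -0.12 (SE 0.15) on exon reads.

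Metabotropic receptors had 0 of 7 genes called by edgeR, beside 6.09% of all tested genes. At that share, a count of 0 does not set the class apart. Their log2 fold changes had a median of -0.188. Of the 7, Grm5 and Grm7 had an unadjusted p under 0.05, and neither DESeq2 nor limma called any. Grm7, a presynaptic receptor of low glutamate affinity, measured 5.29, 5.54 and 6.00 TMM-scaled RPKM in sham and 4.601, 4.68 and 3.99 in ONC samples. The groups did not overlap, and the log2 fold change was -0.34 (SE 0.12, edgeR adjusted p = 0.125). Grm5, which signals through phospholipase C, measured 4.37, 3.58 and 4.30 in sham and 3.84, 3.31 and 2.86 in ONC samples, which overlapped (log2 fold change -0.29, SE 0.12, edgeR adjusted p = 0.200). Without ONC replicate 1 the adjusted p was 0.0621 for Grm7 and 0.0199 for Grm5.

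Grm6, the receptor of ON bipolar cells, measured 22.7, 25.8 and 25.03 TMM-scaled RPKM in sham and 24.8, 20.3 and 22.4 in ONC samples. These ranges overlapped, and the log2 fold change was -0.12 (SE 0.08, edgeR adjusted p = 0.438, and 0.0697 without ONC replicate 1). Grm2 was the only metabotropic gene above 0, at 0.18 (SE 0.13, adjusted p = 0.540, edgeR), and its share of the metabotropic sum was 8.96% ± 0.681 in sham and 11.2% ± 0.833 in ONC samples (SD, n = 3). Grm3, Grm4 and Grm8 were at -0.46, -0.19 and -0.18. The summed metabotropic transcripts were 50.7 ± 1.98 in sham and 45.8 ± 2.88 TMM-scaled RPKM in ONC samples (SD, n = 3, exact permutation p = 0.1, adjusted 0.225).

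The 5 transporter genes of the set examined had the smallest spread of changes among its classes, from -0.17 for Slc1a2 to 0.03 for Slc1a7. By edgeR, 0 of 5 were called, beside 6.09% of all tested genes, so that the count does not set the class apart. Of the 5, Slc1a2 alone had an unadjusted p under 0.05, and neither DESeq2 nor limma called any. Slc1a2 was called lower when no filter on low values was used. The small spread holds for this choice of genes only, as the set left out Slc17a6, Slc1a3 and Slc1a6, which were tested in a fixed list. Slc17a6 was called higher at 0.26 (adjusted p = 0.0525, edgeR). Slc1a3 at 0.08 and Slc1a6 at -0.06 were not called. Slc17a7 measured 674, 685 and 714 TMM-scaled RPKM in sham and 705, 611 and 636 in ONC samples. ONC replicate 1 lay within the sham range, and the other ONC samples lay under it (log2 fold change -0.09, SE 0.06, edgeR adjusted p = 0.472). Slc17a8, which encodes VGLUT3 of a type of amacrine cell, was also at -0.09 (SE 0.12), and the log2 ratio of Slc17a8 to Slc17a7 was -7.28 in both groups (difference 0.001, exact permutation p = 1).

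Slc1a2, which encodes GLT-1, the transporter found in the mouse retina in cones and bipolar cells, measured 33.3, 35.5 and 35.8 TMM-scaled RPKM in sham and 35.7, 28.9 and 28.1 in ONC samples. As for Slc17a7, ONC replicate 1 was at the sham level (log2 fold change -0.17, SE 0.07, edgeR adjusted p = 0.233). Slc1a1, the neuronal transporter EAAC1, was at -0.09 (SE 0.09), and Slc1a7, the transporter EAAT5 of photoreceptor and bipolar cell terminals, was at 0.03 (SE 0.06). Without ONC replicate 1 both Slc17a7 and Slc1a2 were called lower. On the scale of deposited RPKM, Slc17a7, Slc17a8 and Slc1a1 were each at 0.03.

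Intron reads, the reads on a gene outside its exons, can come from RNA that is not yet spliced and were a second readout of the same samples. Their source was not tested. Of 13821 genes with at least 10 intron reads on average in one group, 2.75% were called. Of the 29, the called genes were Grid1 and Grm8, both lower and neither called on exon reads. Both span over 100 kb, as do 17 of the 29. Among all 2209 genes over 100 kb tested on intron reads, 9.42% were called, all 208 of them lower. Grid1 had 413, 426 and 755 intron reads in sham and 271, 220 and 316 in ONC samples (log2 fold change -0.93, SE 0.21, edgeR adjusted p = 0.0676). Grm8 had 954, 1161 and 2276 in sham and 643, 627 and 1073 in ONC samples (log2 fold change -0.87, SE 0.24, edgeR adjusted p = 0.0953). Sham replicate 3 was the highest sample for both genes, and it held the most intron reads in all, 7131984 against at most 5606616 in the other samples.

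Both intron calls were lost without sham replicate 3, where Grid1 was at -0.65 (adjusted p = 0.156, edgeR) and Grm8 at -0.47 (0.256). They were also lost without sham replicate 2, ONC replicate 2 or ONC replicate 3, and that of Grm8 without ONC replicate 1. Each of these fits also called fewer genes in the whole table, and the cause of the losses was not tested. Against 380 genes with all samples, 83 were called without sham replicate 3 and 0 without sham replicate 2. Without ONC replicates 1, 2 and 3 the counts were 276, 0 and 1. The genes called on exon reads had intron log2 fold changes of -0.64 for Grin2a, -0.36 for Gria3, -0.28 for Grin2d, -0.15 for Gria4 and 0.07 for Grik3, none of which passed the threshold. Of the 29 intron log2 fold changes, 18 were below 0, with a median of -0.219. Over all genes tested on intron reads 47.8% were below 0, with a median of 0.0265.

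**Figure D4:**
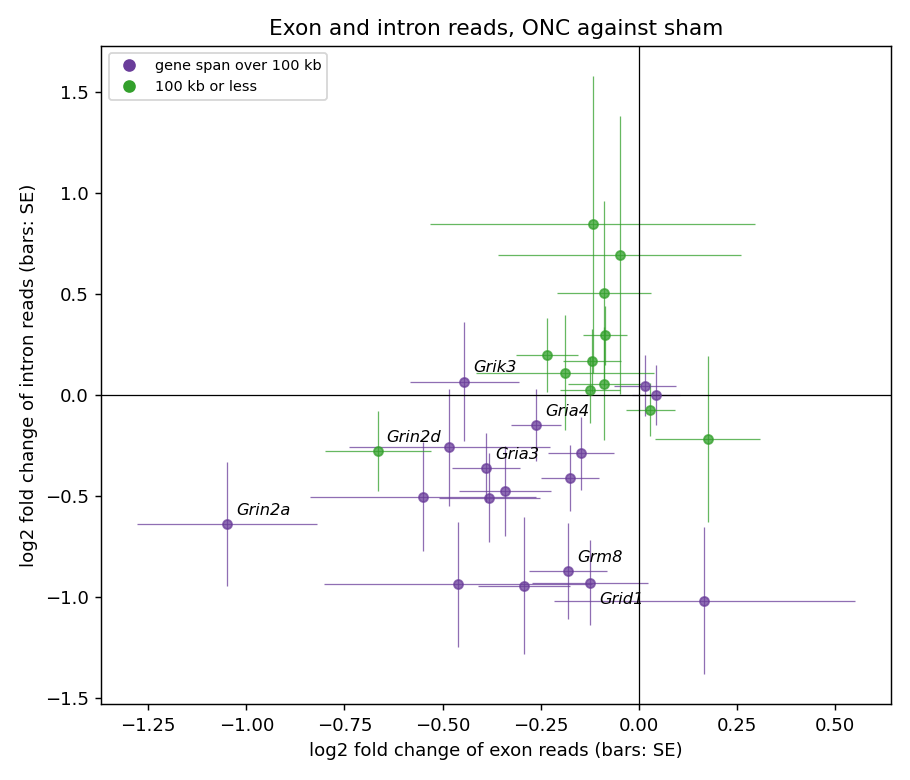
Log2 fold change of exon reads (x axis) against that of intron reads (y axis), ONC against sham, for the 29 genes, with bars of 1 SE. Purple marks genes that span over 100 kb and green the others, and the names are those of genes called on either readout. Most purple points lie below 0 on the intron axis, 15 of 17, beside 85.0% of all tested genes over 100 kb. The green points lie on both sides, 3 of 12 below 0, beside 40.7% of all tested genes of 100 kb or less.

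Many of the 29 are long genes, a feature that the choice of genes did not use. The longest were Grm7 with 922 kb, Grm8 with 859 kb and Grid1 with 761 kb, and 17 of the 29 spanned over 100 kb. Long genes were lower after ONC in the whole table, so that 10.3% of the 1915 tested genes over 100 kb were called lower and 71.0% were below 0, with a median of -0.094. Of the 17 long receptor and transporter genes, 4 were called lower (Gria3, Gria4, Grik3 and Grin2a) and 14 were below 0, with a median of -0.292. Among the 12 shorter ones, Grin2d with 34.2 kb was the only one called, and the median was -0.103. Of all tested genes of 100 kb or less, 2.64% were called lower, and their median was 0.024. On intron reads the 17 long genes had a median of -0.473 and the 12 shorter ones of 0.140, beside -0.421 and 0.095 for all genes of these spans. The part of gene span in the calls was not tested.

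Genes that assemble or anchor these receptors, or act with them, were taken from fixed lists. Of their 58 genes 57 were tested and 7 (12.3%) were called, beside 6.09% of all tested genes (3.72% called lower). Of the 7, 5 were lower and 2 higher. This balance depended on the scaling, with 3 lower and 5 higher by edgeR under that of the deposited RPKM. It was 1 lower and 4 higher by limma, which was run on the deposited RPKM and has the same scaling. Partners of AMPA receptors had 14 of 15 genes below 0, beside 47.7% of all tested genes, and 2 called. Those nearest below 0 were Cacng2 at -0.03, Cacng7 and Nptx2 at -0.05 and Shisa9 at -0.10. Signs of changes this small depend on the scaling, as that of the deposited RPKM moved the median of all genes to 0.131. Cacng5, a transmembrane regulator of AMPA receptors, measured 10.95, 12.0 and 12.0 TMM-scaled RPKM in sham and 9.495, 6.61 and 7.19 in ONC samples (log2 fold change -0.59, SE 0.12, edgeR adjusted p = 0.00442). Nptx1, the secreted neuronal pentraxin that clusters AMPA receptors, measured 23.6, 27.3 and 24.6 in sham and 22.0, 18.7 and 18.9 in ONC samples (-0.34, SE 0.07, edgeR adjusted p = 0.0105). The groups did not overlap for either gene, and Nptx1 was not called without sham replicate 2.

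Of 17 postsynaptic scaffold genes, 3 were called lower and 1 higher, beside 3.72% of all tested genes called lower and 6.09% called in all. Below 0 were 14 of the 17, beside 47.7% of all tested genes, the nearest to 0 being Homer1 at -0.03 and Dlg1 at -0.05. Shank1 was at -0.43 (adjusted p = 0.0156), Shank2 at -0.39 (0.0409) and Dlg2, which encodes PSD-93, at -0.18 (0.0805), all by edgeR. Pick1, which binds GluA2 and takes part in its removal from the membrane, was higher at 0.29 (adjusted p = 0.0966, edgeR), with 13.4, 13.5 and 13.0 TMM-scaled RPKM in sham and 15.9, 16.5 and 16.4 in ONC samples. Shank1 was not called without sham replicate 2, and Shank2 and Dlg2 were not called without sham replicate 2 or 3 or ONC replicate 2 or 3. Pick1 was called in 6 of 17 alternatives, with ONC replicate 1 as the only sample that could be left out without losing it.

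Slc17a6, which encodes VGLUT2, the vesicular transporter of RGCs, was higher after ONC. It measured 21.8, 21.0 and 25.8 TMM-scaled RPKM in sham and 27.2, 27.6 and 27.5 in ONC samples, without overlap (log2 fold change 0.26, SE 0.07, edgeR adjusted p = 0.0525). This direction was opposite to that of the RGC marker list. Without sham replicate 1 or 2 or ONC replicate 2 or 3 it was not called. The kainate receptor partners Neto1 and Neto2 (0 of 2), the mGluR6 cascade of ON bipolar cells (0 of 11) and genes of glutamate and glutamine metabolism (0 of 7) had no gene called by edgeR. With 6.09% of all tested genes called, a count of 0 does not set lists this short apart. In these lists, 1, 4 and 1 genes had an unadjusted p under 0.05, DESeq2 called 0, 1 and 0, limma (pseudocount 0.1) called 0, 2 and 0, and without ONC replicate 1 edgeR called 1, 5 and 2. The median log2 fold change of the mGluR6 cascade was 0.033, with 4 of its 11 genes below 0.

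**Figure D5:**
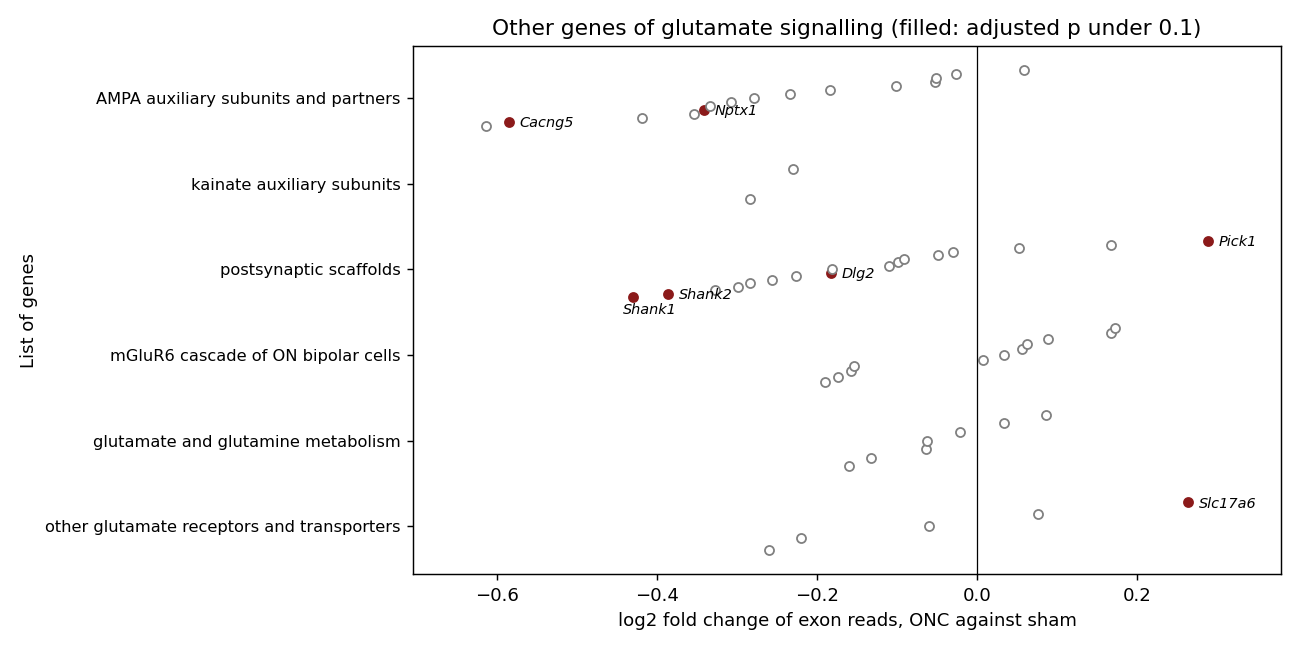
Log2 fold change of exon reads, ONC against sham, of the 57 tested genes of the fixed lists, 1 row per list, with each point a gene. Filled points passed an adjusted p under 0.1 and are named. The AMPA partners lie almost all below 0 (14 of 15), some of them close to it, while the mGluR6 cascade lies on both sides (4 of 11 below 0). Of all tested genes 47.7% were below 0.

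The bases just before the start of a gene were read from RefSeq (GRCm38.p6) to show the promoters of genes with different outcomes. Of the 29 genes, 20 had an entry, with 24 starts in all, and Gria3 and Grin2a had none. The GC box, GGGCGG on either strand, was found in 13 of the 24 windows of 300 bases, against 35.7% of all 32851 promoters, the TATA box TATAAA in 1 against 13.6%, and the cAMP response element TGACGTCA in 0 against 1.79%. The median GC content was 62.3% against 52.7%. Shown are the 250 bases before the start, 5′ to 3′ on the strand of the gene, for Gria4 (called lower, chr9:4796235-4796484, minus strand), Grin1 (nearest to the threshold, chr2:25319188-25319437, minus strand) and Slc17a7 (not called and the highest of the 29, chr7:45163671-45163920, plus strand), with GC boxes in capitals.
Gria4: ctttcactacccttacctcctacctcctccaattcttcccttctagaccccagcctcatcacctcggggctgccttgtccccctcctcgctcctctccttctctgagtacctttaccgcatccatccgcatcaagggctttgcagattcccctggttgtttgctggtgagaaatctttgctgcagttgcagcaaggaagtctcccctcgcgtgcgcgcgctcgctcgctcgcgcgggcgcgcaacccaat
Grin1: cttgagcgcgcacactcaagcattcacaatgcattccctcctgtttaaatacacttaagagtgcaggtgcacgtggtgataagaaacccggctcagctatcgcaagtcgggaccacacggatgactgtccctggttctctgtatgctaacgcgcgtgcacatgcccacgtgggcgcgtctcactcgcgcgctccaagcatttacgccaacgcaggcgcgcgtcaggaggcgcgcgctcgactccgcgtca
Slc17a7: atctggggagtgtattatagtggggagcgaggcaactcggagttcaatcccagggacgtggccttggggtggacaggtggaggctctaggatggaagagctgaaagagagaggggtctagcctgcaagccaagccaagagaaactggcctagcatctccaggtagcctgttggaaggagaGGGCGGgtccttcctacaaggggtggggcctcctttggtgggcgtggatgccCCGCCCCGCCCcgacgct
The Slc17a7 window held 3 GC boxes, of which 2 overlap near its end, and those of Gria4 and Grin1 held none. The window of Slc17a8 also held none, those of Grm3, Grm8, Slc1a1 and Slc1a7 held 1 each and that of Grm2 held 3. None of these further genes was called on exon reads, and a link between GC boxes and outcome was not tested. Over all promoters, 32.7% of such windows held at least 1.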

How the data were processed

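The authors mapped 100-base paired reads with CLC Genomics Workbench to a genome named mm9. The deposited tables held, per gene and sample, counts of total and unique reads on exons and on whole genes, and RPKM, which the authors computed as exon reads per kilobase scaled to all reads on genes. The coordinates overlapped RefSeq GRCm38.p6 for 99.9% of 29908 matched symbols and NCBIM37 for 10.2%, so they are GRCm38. The library kit was not stated to keep strand, so reads of overlapping antisense genes cannot be told apart. Samples were grouped by the treatment label.

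Genes that averaged more than 0.3 RPKM in either group (13670) were kept. Their total exon counts were tested for an effect of condition alone with edgeR 4.0.16 (TMM, quasi-likelihood, R 4.3.3), at an adjusted p threshold of 0.1 and, for DEGs, a fold change above 1.5. Intron reads were total gene minus total exon reads, in genes with a mean of at least 10 in one group. The SE was the log2 fold change divided by the square root of the F statistic. Shares, ratios and sums were compared with two-sided exact permutation tests over samples. Alternatives were DESeq2 1.42.0 (size factors and Wald test), limma 3.58.1 on log2 of the deposited RPKM with a pseudocount of 0.1 or 1, edgeR with the scaling of RPKM, other filters, unique reads, an exon length trend correction, a replicate block, and leaving out each sample. The scripts were tested on simulated data. All 29 genes, those nearest to the threshold and called genes of the fixed lists were named by rule. The 29 genes and all lists were chosen with earlier results of these data known. Group mean columns of the tables were not used.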

Additional observations from a re-analysis of the deposited data

How the results depend on the processing

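Of the genes called on exon reads, Grin2d was called in 17 of 17 alternatives, Grin2a in 16, Gria3 in 14, Gria4 in 11 and Grik3 in 6. The count of 5 became 3 with the scaling of RPKM, 2 with limma at either pseudocount, 9 with no filter, 3 with the length trend correction and the replicate block together, and 2 to 12 when 1 sample was left out. The share of all tested genes called in these fits was 12.7% with the scaling of RPKM, 8.2% and 8.47% with limma, 6.66% with no filter, 4.56% with the length trend correction and the replicate block, and 2.71% to 14.9% with a sample left out, against 6.09%. With the replicate block alone it was 4, with Grik3 at an adjusted p of 0.126 by edgeR. Samples with the same number did not deviate together (correlations of -0.047, -0.033 and 0.003), so the numbers were not taken as pairs. The 2 DEGs became 1 with the scaling of RPKM (Grin2a), 1 with limma at a pseudocount of 0.1 (Grin2a) and 0 at a pseudocount of 1. They became 1 with unique exon reads (Grin2d), and 1 to 3 with a sample left out. The 7 called genes of the other lists became 15 with no filter and 1 to 23 with a sample left out, and their split of 2 higher and 5 lower became 5 and 3 with the scaling of RPKM and 4 and 1 with limma at either pseudocount. The 2 intron calls became 1 with DESeq2 size factors and 0 to 3 with a sample left out, when 0 to 930 genes of the whole table were called. The limma fits used the deposited RPKM and so carried its scaling, with a median log2 fold change of all genes of 0.129 and 0.108. The cause of the changed counts was not tested, except that without a sample fewer samples enter the fit.

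The Grin2b to Grin2a difference turned to -0.109 with unique exon reads (0.040 to 0.630 with a sample left out). With the scaling of RPKM the log2 ratios of the kainate and transporter sums turned to 0.042 and 0.038. With a sample left out, the Gria1 share difference ranged from -0.493 to 0.511 percentage points, the Gria2 share difference from 3.693 to 6.061, and the Slc17a8 to Slc17a7 difference from -0.076 to 0.065. The log2 ratio of sums then ranged from -0.166 to -0.128 for AMPA, -0.420 to -0.286 for NMDA, -0.112 to -0.035 for kainate, -0.199 to -0.112 for metabotropic and -0.145 to -0.042 for transporter genes.

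Single genes that changed sign under the scaling of RPKM were Grik5 (0.0014), Grin2c (0.07), Grin3b (0.01), and Slc17a7, Slc17a8 and Slc1a1 (0.03 each). Under limma, Grin2c was at 0.04 and 0.02, and Slc17a7, Slc17a8 and Slc1a1 at 0.03. With unique reads the intron log2 fold change of Gria2 was 0.01 and that of Grin1 -0.06. With a sample left out, the ranges that crossed 0 were -0.01 to 0.07 for Gria2, -0.06 to 0.10 for Grik1, -0.40 to 0.53 for Grik4, -0.28 to 0.13 for Grin2c, -0.35 to 0.16 for Grin3b and -0.0026 to 0.07 for Slc1a7. On intron reads they were -0.13 to 0.09 for Gria2, -0.34 to 0.01 for Gria4, -0.10 to 0.13 for Grik1, -0.09 to 0.27 for Grik3, -0.42 to 0.15 for Grm2, -0.14 to 0.26 for Grm4, -0.13 to 0.14 for Grm6 and -0.12 to 0.45 for Slc1a1. Genes with at most 111 exon reads in every sample, namely Grik4, Grin2c, Grin3b and Grm3, had an SE of 0.31 to 0.41, so changes of that size could not be detected at this depth.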
